A study of Mus musculus with 18 samples.

Results

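Ky, Cdh3, Tppp3 and Fam19a1 are 4 genes of very different function that were much lower in the aorta of progeric mice than in that of WT mice of the same age. They were chosen by the size of that difference out of 54281 genes in the count table, of which 15210 had enough counts to be tested, and all 4 passed that filter. The choice used the measured values of the HGPS and 2-mo WT mice, so those values are given as a description with no test. The age comparison and the comparison of HGPS with 24-mo WT were not used in the choice, but each shares 1 group of mice with it. A gene picked for high values in 2-mo WT and low values in HGPS is set by that choice towards a fall in both.

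The samples are descending aortas of male C57BL/6 mice, taken from the end of the arch to the diaphragm, with the intima, media and adventitia together. The 6 HGPS mice are homozygous for LMNAG609G, a knock-in at the mouse Lmna locus that is active in every cell that uses Lmna and leads to progerin, a shortened Lamin A made by faulty splicing. They were 64 to 75 d old. The other groups were 6 WT mice at 2 mo, 5 of them 62 d old and 1 of them 95 d old, and 6 WT mice at 24 mo (609 to 762 d). Each mouse was 1 library of 12413229 to 30844775 counts. Values are CPM, read counts per library size after TMM scaling, and a gene is called when it changed at least 1.5-fold by edgeR at an adjusted p below 0.001. Lmna itself had 577 ± 82.3 CPM (SD, n = 6) in HGPS and 416 ± 60.7 CPM in 2-mo WT and was not called (edgeR, adjusted p = 0.00383), and counts summed over a gene cannot show the progerin splice.

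Ky encodes the kyphoscoliosis peptidase, a protein of the muscle Z-disc whose loss causes a muscle and spine disease in mice. Cdh3 encodes P-cadherin, a classical cadherin that joins neighbouring cells through calcium-dependent contacts and is best known from epithelia and placenta. Tppp3 encodes a member of the tubulin polymerization promoting proteins, which bind and stabilize microtubules, and marks cells of the tendon sheath. Fam19a1, called Tafa1 in newer annotations, encodes a small secreted chemokine-like protein that is best known from the brain. None of the 4 is a classical contractile gene of arterial smooth muscle.

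In GRCm38, the build of the count table, Ky (ENSMUSG00000035606) lies at chr9:102505750-102546239 on the plus strand with 11 exons in its longest coding transcript. Cdh3 (ENSMUSG00000061048) lies at chr8:106510891-106557297 on the plus strand with 16 exons. Tppp3 (ENSMUSG00000014846) is the shortest of the 4, at chr8:105467493-105471526 on the minus strand with 4 exons. Fam19a1 (ENSMUSG00000059187) is the longest and spans 544045 bases at chr6:96113154-96657198 on the plus strand, with 5 exons in its longest coding transcript. Tppp3 and Cdh3 are 1.04 Mb apart on the same chromosome.

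RefSeq's promoter windows, from 250 bases before to 50 bases after a gene's start, were at hand for 2 of the 4 genes, Ky (chr9:102505888-102506187) and Fam19a1 (chr6:96112904-96113203), both on the plus strand of GRCm38.p6. GENCODE places the start of Ky further upstream than RefSeq does. The windows of both genes are shown here in part because they differ in base composition and in the motifs they hold. The 30-base stretches shown lie at chr9:102505944-102505973 for Ky and chr6:96112992-96113021 for Fam19a1. The capitals within them mark a GC box (GGGCGG) in Ky and an AP-1-like site (TGANTCA) in Fam19a1.
Ky: tagcgccctcccGGGCGGgttctaatggtg
Fam19a1: aaagcgctgctTGAGTCAtgggagagttaa
The Ky window was 69.0% G and C, above 88.9% of all 32851 promoter windows, and the Fam19a1 window 42%, above 14.1% of them. On either strand, 35.7% of all windows held the GC box and 7.81% the AP-1-like site. Both genes' windows held an E-box (CANNTG), as did 72.3% of all windows, and neither held a TATA box (TATAAA) or the CArG box by which serum response factor is known to bind smooth muscle genes, found in 13.6% and 1.63% of all windows. The E-box and the AP-1-like site read as the same motif on both strands. A match of letters is not a binding site, and no match says only that the letters are not in this window.

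Ky expression in 2-mo WT had a lowest value of 12.8, a median of 27.6 and a highest of 31.99 CPM. In HGPS it was 3.22, 6.95 and 9.62 CPM in the same order. Every HGPS mouse lay below every 2-mo WT mouse. The mean fell short of that of 2-mo WT by 3.64-fold (6.90 ± 2.12 against 25.3 ± 6.93 CPM, SD, n = 6 each), a log2 difference of -1.86 (SE 0.28). The lowest of the 2-mo WT mice was the one that was 95 d old, and without it the log2 difference was -2.0.

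Cdh3 expression was 12.03, 18.5 and 24.3 CPM (lowest, median and highest) in 2-mo WT and 3.43, 5.48 and 8.75 CPM in HGPS, again with the groups apart. The means were 19.03 ± 4.30 and 5.63 ± 1.81 CPM, 3.35-fold lower in HGPS (log2 difference -1.75, SE 0.27). The 95-d-old mouse was the lowest of its group here too, and the log2 difference was -1.85 without it.

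Tppp3 was the most strongly expressed of the 4. It had 97.7, 107 and 142 CPM in 2-mo WT and 31.9, 33.4 and 42.5 CPM in HGPS. The HGPS values were closely grouped, and the highest of them was far below the lowest WT value. The means of 112 ± 15.8 and 34.5 ± 3.99 CPM differed 3.23-fold (log2 difference -1.69, SE 0.10).

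Fam19a1 had 14.0, 16.1 and 22.2 CPM in 2-mo WT and 4.73, 5.26 and 6.89 CPM in HGPS, with no overlap. The means were 17.3 ± 3.56 and 5.50 ± 0.82 CPM, 3.15-fold lower in HGPS (log2 difference -1.65, SE 0.13). The 95-d-old WT mouse was the highest of its group for this gene, and the log2 difference was -1.57 without it. Of all genes tested, 4.23% were called lower and 5.27% higher in HGPS than in 2-mo WT, and 10.9% had every HGPS mouse below every 2-mo WT mouse. Nothing is read from the 4 genes being among them, since this comparison chose them.

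Levels of different genes can be set side by side only per length. In 2-mo WT, Tppp3 had 60.3 CPM per kb of exon, at the 95.7th percentile of all genes tested. Ky (4.30 CPM per kb), Cdh3 (4.34) and Fam19a1 (4.1) lay near the middle of that range, between the 52.5th and the 54.0th percentile. In HGPS, Tppp3 was at 18.7 CPM per kb (percentile 85.3) and the other three between 1.17 and 1.31 CPM per kb, at the 26.8th to 28.5th percentile.

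**Figure D1:**
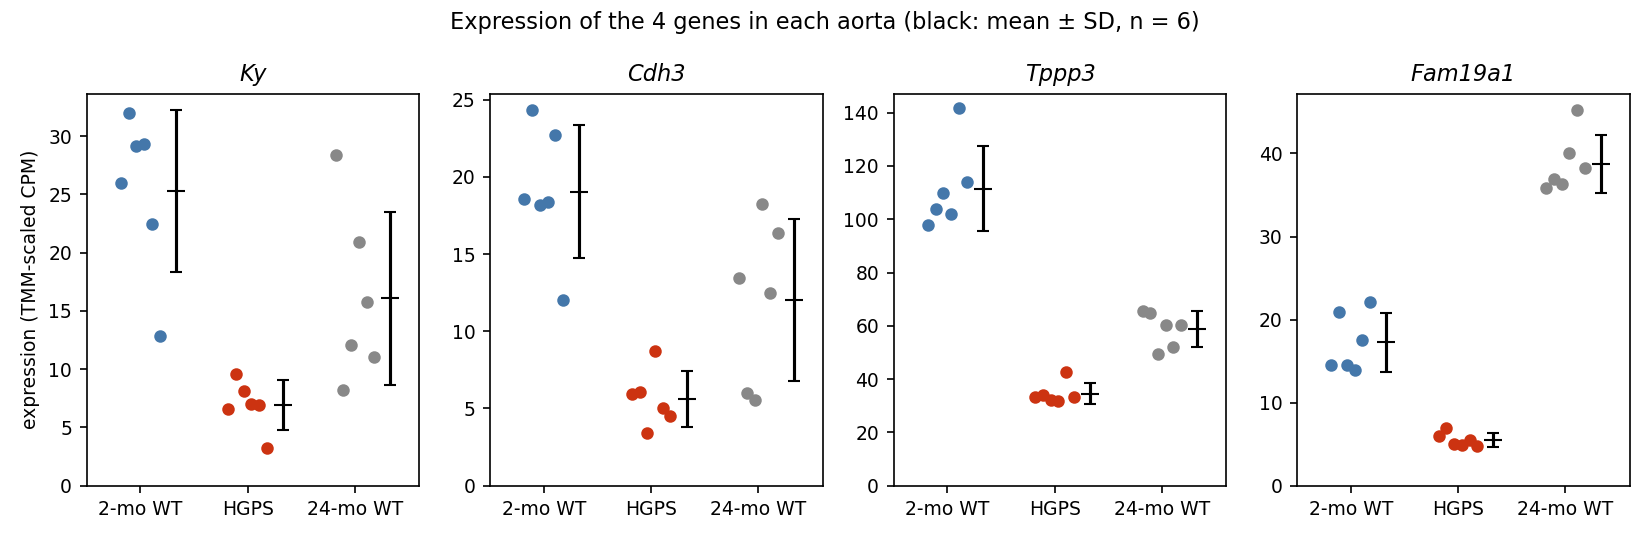
TMM-scaled CPM (vertical axis, linear, from 0) of each gene in every aorta, by group: 6 mice each of 2-mo WT (blue), HGPS (red) and 24-mo WT (grey), with the mean ± SD in black. HGPS mice lie below all 2-mo WT mice for each of the 4 genes, while the 24-mo WT mice overlap both groups for Ky and Cdh3, lie between them for Tppp3 (49.4 to 65.5 CPM) and above both for Fam19a1 (35.8 to 45.2 CPM).

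By size of the difference, Ky, Cdh3, Tppp3 and Fam19a1 were all within the first 5 of 524 genes that were called lower in HGPS than in 2-mo WT, had no overlap between the groups and a mean count of at least 100. Kcnc4, a potassium channel gene, stood between Tppp3 and Fam19a1 with a log2 difference of -1.68 (SE 0.18). Just after Fam19a1 came Adra1d, the gene of an alpha-1 adrenergic receptor, at -1.64 (SE 0.13), and Foxf1, a transcription factor gene, at -1.63 (SE 0.19). The steps between these genes, and those from Ky to Cdh3 and from Cdh3 to Tppp3, are smaller than the standard errors, so their order is not set by the data. Without the limit on the mean count, 8 genes with fewer counts had larger falls than Ky and 13 larger falls than Fam19a1, the largest being Rab17 at -2.55 (SE 0.28).

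With age the mean of Fam19a1 rose and the means of the other genes fell. The falls of Ky (-0.65, SE 0.27), Cdh3 (-0.66, SE 0.26) and Tppp3 (-0.93, SE 0.10) were not tested against each other. At 24 mo Tppp3 had fallen and Fam19a1 had risen past the thresholds, while Ky and Cdh3 were not called. This made 1 of 4 called lower, beside 0.717% of all genes tested, and 1 of 4 called higher, beside 1.28%. The comparison uses the same 2-mo WT mice as the choice of the genes, which bears on a fall and not on a rise.

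Fam19a1 in 24-mo WT had 35.8, 37.6 and 45.2 CPM (lowest, median and highest). All 6 old mice were above all 2-mo WT mice, as was so for 3.2% of genes, and the mean rose 2.24-fold to 38.7 ± 3.50 CPM (SD, n = 6; log2 fold change 1.16, SE 0.12; edgeR, adjusted p = 1.47e-06). Thus the gene was low in HGPS and high in old WT aorta, and the groups lay in the order HGPS, 2-mo WT, 24-mo WT with gaps between all of them. Per kb of exon, the level was 9.19 CPM in 24-mo WT, at the 72.9th percentile of genes tested.

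Tppp3 in 24-mo WT had 49.4, 60.3 and 65.5 CPM, below every 2-mo WT mouse and above every HGPS mouse. All 6 old mice lay below the 2-mo WT mice, as was so for 3.08% of genes, and the mean of 58.7 ± 6.68 CPM was 1.90-fold lower than in 2-mo WT (log2 fold change -0.93, SE 0.10; edgeR, adjusted p = 2.21e-06). The order of its groups was HGPS, 24-mo WT, 2-mo WT, also with gaps between all of them.

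Ky in 24-mo WT ranged from 8.25 to 28.4 CPM with a median of 13.9. Of the 6 old mice, 3 lay below all 2-mo WT mice and the rest among them. The mean of 16.1 ± 7.44 CPM did not differ from that of 2-mo WT beyond the spread (log2 fold change -0.65, SE 0.27; edgeR, adjusted p = 0.137).

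Cdh3 in 24-mo WT ranged from 5.56 to 18.3 CPM with a median of 12.98, and 2 of the 6 old mice lay below all 2-mo WT mice. Its mean of 12.02 ± 5.24 CPM gave a log2 fold change of -0.66 (SE 0.26; edgeR, adjusted p = 0.115), not past the threshold. The spread between old mice was wide for both genes, with a coefficient of variation of 46.3% for Ky and 43.6% for Cdh3, beside 11.4% for Tppp3 and 9.03% for Fam19a1.

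HGPS and 24-mo WT differ in genotype and in age, and the HGPS mice are those of the choice. In this comparison 2 of the 4 genes were called lower in HGPS, beside 6.11% of all genes, and the same 2 had no overlap, as had 11.3% of genes with HGPS below. Fam19a1 was 7.04-fold lower in HGPS (log2 fold change -2.82, SE 0.13; edgeR, adjusted p = 2.52e-11). Tppp3 was 1.70-fold lower (-0.76, SE 0.10; adjusted p = 4.17e-06).

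Ky was 2.33-fold lower in HGPS than in 24-mo WT (-1.22, SE 0.28), with 5 of 6 HGPS mice below all old mice, and its adjusted p of 0.00158 in edgeR missed the cut-off. Cdh3 was 2.12-fold lower (-1.09, SE 0.27), with 3 of 6 HGPS mice below all old mice and an adjusted p of 0.00289. Both calls depended on single mice. Without mouse 2 of 24-mo WT, the lowest of its group for Ky, both genes were called (adjusted p = 0.000535 for Ky and 0.000776 for Cdh3). Cdh3 was also called without mouse 3 of 24-mo WT (0.00055) and Ky without the 95-d-old mouse (0.000858).

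**Figure D2:**
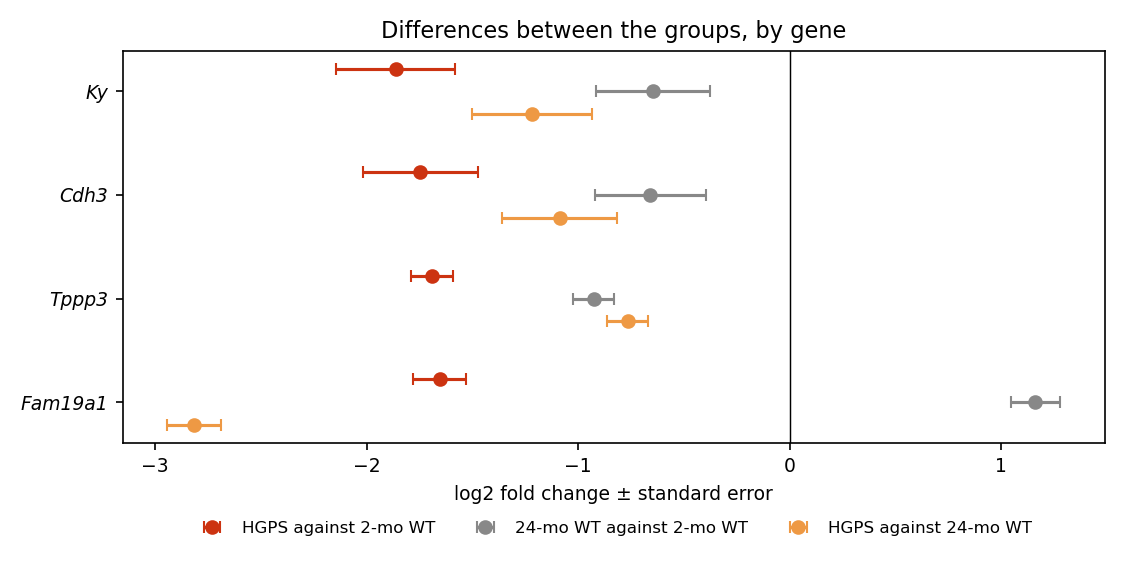
Log2 fold change (horizontal axis) with its standard error for each gene in 3 comparisons: HGPS against 2-mo WT (red, the comparison that chose the genes), 24-mo WT against 2-mo WT (grey) and HGPS against 24-mo WT (orange), from 6 mice a group. Fam19a1 stands at 1.16 with age and at -2.82 between HGPS and 24-mo WT, while the grey points of the other genes lie between -0.93 and -0.65.

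Whole aorta mixes cell types, and fewer cells of a type and less RNA per cell cannot be told apart in these values. The defining genes of smooth muscle were present in every library. The summed CPM of 12 smooth muscle markers, among them Acta2, Myh11 and Tagln, was 32310 to 41319 in 2-mo WT and 21266 to 29498 in HGPS, with the groups apart, and 6 of the 12 were called lower and 1 higher in HGPS. The mean of this sum was 1.54-fold lower in HGPS. Per 1000 CPM of the markers, Ky was 2.39-fold lower in HGPS (0.283 ± 0.0904 against 0.678 ± 0.196, SD, n = 6) and Cdh3 2.19-fold (0.231 ± 0.0722 against 0.507 ± 0.105), now with overlap between the groups. For both genes the overlap came from the 95-d-old 2-mo WT mouse alone. Its values were 0.337 for Ky and 0.317 for Cdh3, under the highest HGPS values of 0.412 and 0.349. Tppp3 was 2.09-fold lower (1.42 ± 0.0978 against 2.97 ± 0.296) and Fam19a1 2.02-fold (0.227 ± 0.0398 against 0.459 ± 0.0818), and both stayed apart. With age the sum overlapped (33546 to 38272 in 24-mo WT), and Fam19a1 per 1000 CPM of the markers was 1.05 ± 0.0938 in 24-mo WT, with every old mouse above all others. Tppp3 per 1000 CPM of the markers was 1.60 ± 0.240 in 24-mo WT (1.29 to 1.94), which overlapped with HGPS (1.27 to 1.57), so the gap between these groups in CPM was not there on this scale.

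Other cell types also moved with the groups, and their part in the 4 genes' differences was not tested. The summed macrophage markers were 469 to 723 CPM in 2-mo WT and 881 to 1438 in HGPS, with 7 of 10 called higher. White fat markers went from 401 to 1816 CPM in 2-mo WT to 1498 to 5039 in HGPS, with 1 of 10 called higher, and brown fat markers from 121 to 647 to 492 to 1805, with 2 of 10, and both fat sums overlapped. The summed Schwann cell and nerve markers were lower in HGPS (431 to 566 CPM) than in 2-mo WT (650 to 762) and 24-mo WT (641 to 819) with no overlap, while of the 7 tested markers only Ncam1 was called lower and Tubb3 higher than in 2-mo WT. The median log2 fold change of these 7 was 0.34, so the fall of the sum was not shared by most of them. The summed fibroblast markers overlapped in HGPS (6333 to 10580 CPM) with 2-mo WT (9010 to 11608) through mouse 6 of HGPS alone. The next highest HGPS mouse had 8437 CPM, below all 2-mo WT mice. Of the 10 markers, 1 was called lower in HGPS than in 2-mo WT, with a median log2 fold change of -0.29. In 24-mo WT the fibroblast sum lay below 2-mo WT (5917 to 8372), beside the fall of Tppp3, and 3 of the 10 were called lower.

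For Ky, skeletal muscle left on the vessel would matter, since the gene is known from there. The 20 skeletal muscle markers summed to 93.5 to 162 CPM in 2-mo WT, 93.6 to 168 in HGPS and 96.8 to 126 in 24-mo WT, with overlap between all groups, and Casq1 alone made up 107, 101 and 92.2 CPM of the means. Of the 8 tested, Mybpc2 (-1.17, SE 0.25) and Ckm (-1.08, SE 0.20) were called lower and Tnnt3 (2.0, SE 0.34) higher in HGPS than in 2-mo WT, and 0 with age. Myh1, Myh2, Myh4 and Atp2a1, which define fast skeletal fibres, had group means of at most 0.25 CPM, and Myog and Cacng1 had no count in any mouse. For Cdh3, the epithelial genes Epcam, Krt5 and Dsg3 had group means of at most 0.08 CPM, and the epithelial sum (469 to 575 CPM in 2-mo WT, 339 to 498 in HGPS) was almost all Dsp. For Tppp3, the tendon and sheath markers other than itself overlapped (227 to 336 CPM in 2-mo WT, 232 to 368 in HGPS and 261 to 365 in 24-mo WT). Of 7 tested, 2 were called higher in HGPS than in 2-mo WT, Scx (1.25 on the log2 scale, SE 0.19) and Chad (1.52, SE 0.29), and 0 lower, and 1, Mkx, was called higher with age (2.27). The ciliated cell markers, a further site of Tppp3, summed to 5.15 to 15.2 CPM in 2-mo WT, 4.28 to 5.77 in HGPS and 6.25 to 14.7 in 24-mo WT. Of 3 tested, 1 was called lower in HGPS than in 2-mo WT, 2 lower in HGPS than in 24-mo WT, and 0 with age.

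**Figure D3:**
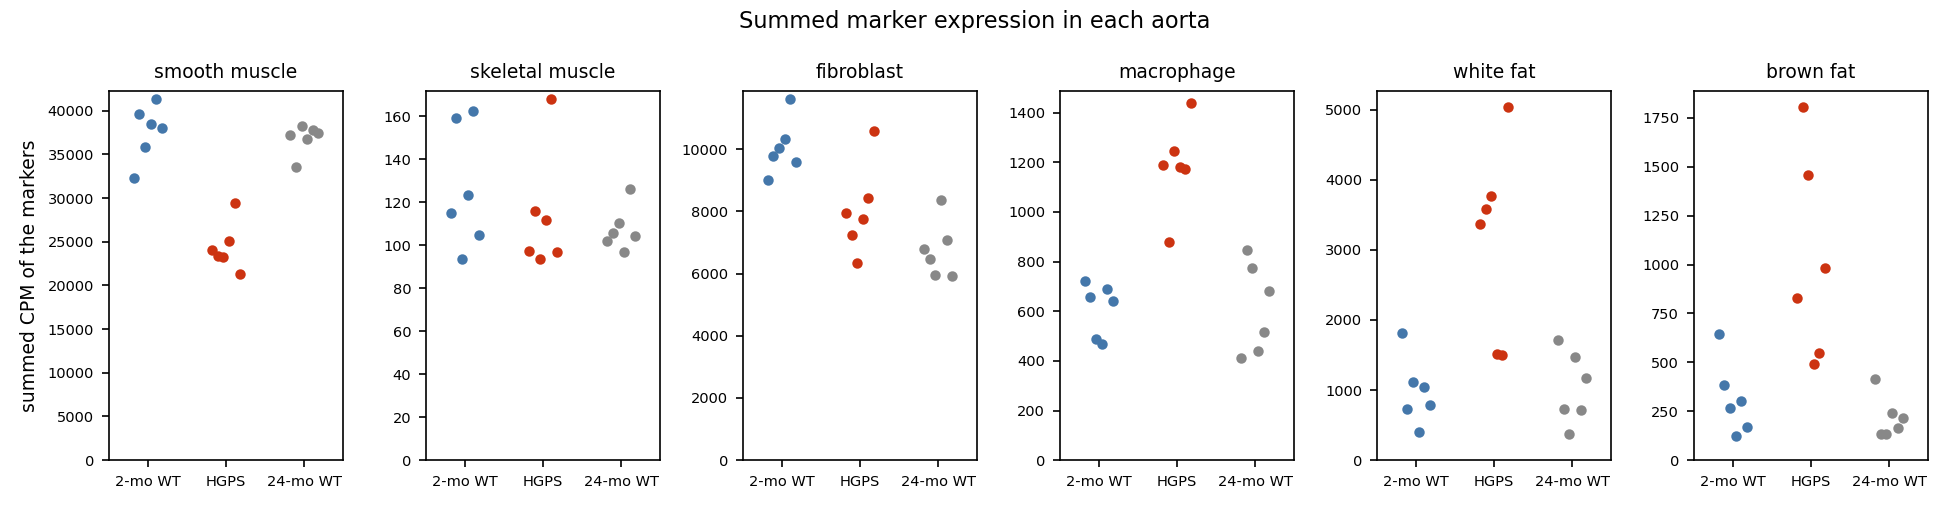
Summed TMM-scaled CPM (vertical axes, linear, from 0, one scale per panel) of the markers of 6 cell types in every aorta, with 6 mice a group in blue (2-mo WT), red (HGPS) and grey (24-mo WT). The smooth muscle sum of HGPS (21266 to 29498) lies below and the macrophage sum (881 to 1438) above both WT groups, and the skeletal muscle sums overlap in all 3 groups.

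The families and partners of the 4 genes were taken from lists and counted without the 4 genes themselves. Among 20 tested genes of the Z-disc and of Ky's known partners, 7 (35% of them, beside 4.23% of all genes) were called lower and 0 higher in HGPS than in 2-mo WT, with a median log2 fold change of -0.38, and 0 were called with age. Tcap, the titin cap at the Z-disc, had 14.8 ± 7.05 CPM in HGPS and 45.6 ± 16.6 in 2-mo WT (log2 fold change -1.61, SE 0.30). Next came Pdlim3 (-1.06, SE 0.10) and Synpo2 (-1.04, SE 0.12), which bind actin filaments, and Ldb3 (-0.78, SE 0.11), which binds alpha-actinin. Flnc, the filamin that binds the Ky protein, was called too (-0.63, SE 0.13). Igfn1, another partner, had 3 counts over all mice. Synpo2 is also one of the smooth muscle markers, of which 6 of 12 were called lower in HGPS. The list was chosen with earlier results of these data known. Its share is a description, and whether it exceeds the fall of smooth muscle genes was not tested.

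Among 16 other tested cadherin and catenin genes, 2 (12.5%, beside 4.23% of all genes) were called lower in HGPS, with a list median of -0.01. They were Ctnna3, an alpha-catenin (-1.15, SE 0.14), and Cdh6 (-0.82, SE 0.13). With age only Cdh18 was called in this list (-1.60, SE 0.24), beside 0.717% of all genes called lower. Cdh1, the main cadherin of epithelia, had 30 counts over all mice, while Cdh13 had 404 ± 33.6 CPM in 2-mo WT and 381 ± 42.5 in HGPS and was not called.

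Among 30 other tested genes of the TPPP family and of microtubules, 1 was called lower in HGPS, Map1b (-0.65, SE 0.11), and 4 higher. Of all genes, 4.23% were called lower and 5.27% higher. The largest rise was that of Tubb3 (2.5, SE 0.42), a tubulin of neurons that is also on the nerve marker list, followed by Stmn1 (1.20, SE 0.20), Dclk1 (1.04, SE 0.10) and Tubb2b (0.83, SE 0.14). With age 1 gene of this list was called, Dclk1, which was lower in 24-mo WT (-0.84, SE 0.10; edgeR, adjusted p = 1.94e-05). Tppp, the founding member of the family, had 23.5 ± 3.8 CPM in 2-mo WT, 23.7 ± 4.22 in HGPS and 26.7 ± 6.73 in 24-mo WT, and was called in neither comparison. Tppp2 had 1 count over all mice. Tppp was thus the 1 other member measured well enough to be tested.

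Of the TAFA family, Fam19a5 had 7.78 ± 0.87 CPM in 2-mo WT, 5.99 ± 0.77 in HGPS and 9.50 ± 1.51 in 24-mo WT and was not called. Fam19a3 had 0.54 ± 0.18 CPM in 2-mo WT, Fam19a2 had 5 counts over all mice and Fam19a4 had 0, which does not exclude a very low level. Gpr1, a receptor for the FAM19A1 protein, had 34 counts over all mice. In the list of this family, its receptors, neurexins and neuroligins, 8 other genes were tested. Of these, Nlgn3 was called lower in HGPS (-0.76, SE 0.15; 12.5% of the list, beside 4.23% of all genes) and 0 were called with age. The medians over all genes tested were near 0 in each comparison.

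Of the protein-coding genes directly beside the 4 on their chromosomes, those that could be tested showed no fall of like size in HGPS. Both neighbours of Cdh3, 6030452D12Rik and Gm10073, had too few counts to be tested (3 and 87 over all mice), as had Lrrc36 beside Tppp3 (73) and Fam19a4 beside Fam19a1. Zdhhc1, 896 bases from Tppp3, had a log2 fold change of -0.55 in HGPS against 2-mo WT (SE 0.07), under the 1.5-fold threshold. Between Tppp3 and Cdh3, 27 of the 39 protein-coding genes were tested, of which 0 were called lower and 1 higher, with a median of 0.05. The tested neighbours of Ky, Cep63 (-0.20, SE 0.07) and Ephb1 (0.32, SE 0.23), were not called, nor was Suclg2 beside Fam19a1 (-0.41, SE 0.06). For Zdhhc1 and Suclg2 every HGPS mouse still lay below every 2-mo WT mouse, as was so for 10.9% of all genes tested. Small genes that overlap Fam19a1 were hardly counted, with 108 counts over all mice for 1700123L14Rik and 0 for the others.

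To find genes of like pattern, log2 CPM was centred on each gene's mean and the root mean square difference over the 18 mice was taken for 10708 genes with a mean count of at least 100. By this measure Ky was most like Smim5 (0.35), Osr1 (0.45), Adra1d (0.45), Zfp612 (0.49) and Cdh3 (0.50), beside a spread of 0.92 for Ky itself. Cdh3 was most like Gpr21 (0.33), 2310015D24Rik (0.36), Igsf9 (0.39), Gm830 (0.42) and Map2k6 (0.43). Tppp3 was most like Asb2 (0.33), Col6a6 (0.33), Fam198a (0.33), Gja6 (0.34) and Ankrd35 (0.34). These are a description, since likeness chose them.

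Fam19a1 was most like Tceal6 (0.36), Hapln1 (0.38), Col19a1 (0.41), Rgs5 (0.43) and Gprasp2 (0.46), beside a spread of 1.16 of its own. Rgs5, a regulator of G protein signaling known from pericytes and vascular smooth muscle, had 1267 ± 181 CPM in 2-mo WT, 608 ± 182 in HGPS and 3577 ± 833 in 24-mo WT. Hapln1, which links hyaluronan to proteoglycans, had 6.63 ± 0.55, 3.57 ± 0.86 and 19.8 ± 3.09 CPM in the same order, and Col19a1, a collagen chain, had 13.7 ± 2.56, 4.89 ± 1.48 and 43.96 ± 7.5. Each of these is low in HGPS and high in old WT, as Fam19a1 is. The 5 genes most like each member changed with the measure: by Pearson's r, 1 of 5 stayed for Ky, 1 for Cdh3, 0 for Tppp3 and 0 for Fam19a1, whereas with a prior count of 0.5 in place of 2, 5, 4, 5 and 5 stayed.

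**Figure D4:**
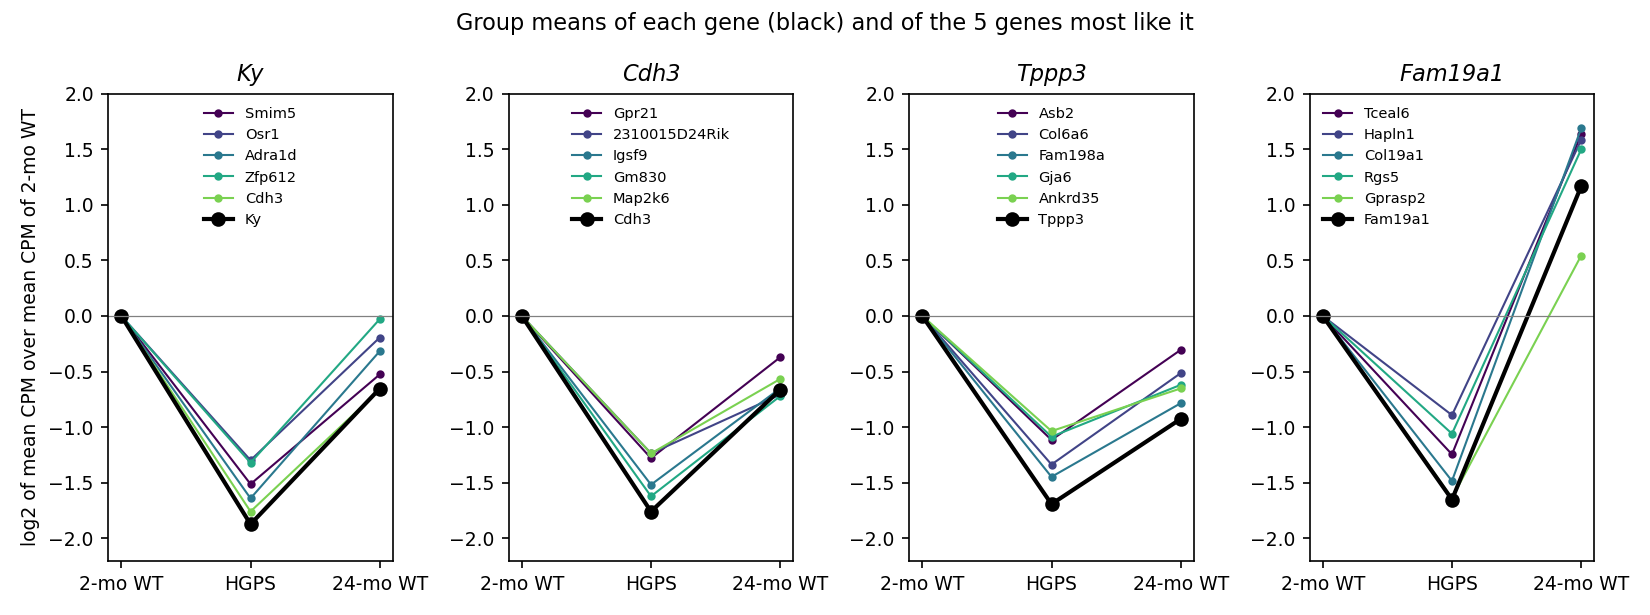
Log2 of each group's mean CPM over that of 2-mo WT (vertical axis) for each of the 4 genes (black) and the 5 genes most like it by root mean square difference (coloured), with the 3 groups of 6 mice on the horizontal axis, joined by lines only to guide the eye. Every line dips at HGPS, and those in the Fam19a1 panel alone rise above 0 at 24 mo.

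Among themselves, Ky, Cdh3 and Tppp3 differed by 0.50 to 0.56 on that scale, and each of them differed from Fam19a1 by 1.00 to 1.02. Mouse-to-mouse variation inside the groups, which the choice did not use, was compared for the 6 pairs over 18 mice after removal of the group means. Ky and Cdh3 had a Pearson r of 0.51 (permutation p = 0.0596, 0.357 adjusted over the 6 pairs) and a Spearman rho of 0.44 (permutation p = 0.103, adjusted p = 0.511). The r was 0.80 within 2-mo WT, 0.17 within HGPS and 0.60 within 24-mo WT. It was 0.43 over the mice left when the 2 farthest from the median of Ky were removed. The 95-d-old mouse was the lowest of 2-mo WT for both genes (12.8 CPM for Ky and 12.03 for Cdh3). No r was computed without this mouse alone, so how far the 0.80 rests on it was not tested. The other 5 pairs had r between -0.04 and 0.14 and rho between -0.06 and 0.35 (permutation tests, adjusted p from 0.511 to 0.961). Covariation inside groups was therefore not detectable for any pair at this number of mice.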

How the data were processed

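The authors made stranded libraries of ribosomal-RNA-depleted total RNA, ran salmon on the read pairs against the M23 release of GENCODE (GRCm38.p6), took gene sums by tximport and tested them with DESeq2. The deposited values are those estimated counts, whole numbers that were not normalized, for 54281 genes. Symbols and positions came from GENCODE M21 (same genome), with promoter windows from RefSeq.

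The 15210 genes that reached 10 counts in 6 or more mice entered edgeR 4.0.16 in R 4.3.3 (TMM, quasi-likelihood test, 3 groups in one fit, Benjamini-Hochberg adjustment over all of them). SE is the log2 fold change over the square root of F. Log2 CPM had a prior count of 2. Within-group correlations used 100000 permutations. On simulated counts for 24-mo WT against 2-mo WT (14971 genes), edgeR recovered 72.3% of changes of 1 on the log2 scale and 79.6% of those of 1.5, with 0 false calls.

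The members and gene lists were chosen with earlier results of these data known. Named genes were the members, the 5 most like each, their neighbours on the chromosome and in the order of falls, and called or related genes of the lists, up to 4 a list. Flnc, Igfn1, Cdh13, Tubb2b and the marker genes named were added after their values were seen. Alternatives were DESeq2 1.42.0, other normalizations and filters, the replicate number as a block, 2 groups alone and each mouse left out. No 2 mice of a group agreed within sampling noise (chi-square per degree of freedom 8.09 to 92.0, 45 pairs).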

Additional observations from a re-analysis of the deposited data

Results flagged for a closer look

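Of 48 groups of 6 mice examined (the 4 genes and the marker sums), 6 had 1 mouse far from the others by Dixon's rule, which chance alone does in about 1 of 20 groups. Tppp3 had 1 high mouse in 2-mo WT (142 CPM, the next 114) and 1 in HGPS (42.5 CPM, the next 34.1), each number 5 of its group. The same HGPS mouse was the highest of its group in the summed skeletal muscle markers (168 CPM, the next 116). The summed smooth muscle markers had 1 low mouse in 24-mo WT (33546 CPM, the next 36729). The summed mesothelial markers had 1 high mouse in 2-mo WT (73.5 CPM, the next 27.6) and 1 in 24-mo WT (61.2 CPM, the next 29.9). With mouse 5 of either group left out, Tppp3 kept its calls in both comparisons in which it was tested.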

How the results depend on the processing

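All 312 recomputed fold changes of the 4 genes kept their direction. They include those of HGPS against 2-mo WT, whose direction was set by the choice and whose calls were not compared. In the other comparisons 0 calls were lost and 8 were gained, all of them in HGPS against 24-mo WT. The genes called there were 2 of 4, but 4 with DESeq2, and 2 to 4 with 1 mouse left out. In addition Ky was called with no filter (adjusted p = 0.000991) and with the replicate block (0.000811). In the age comparison Tppp3 and Fam19a1 were the 2 called in every alternative, and the adjusted p ranged from 0.0316 to 0.244 for Ky and from 0.0598 to 0.211 for Cdh3. Over all genes, 304 were called with age, 481 with DESeq2 and 219 with the replicate block. Those called numbered 1445 in HGPS against 2-mo WT (1265 with the block) and 1845 in HGPS against 24-mo WT (1653). Leaving out 1 mouse gave 231 to 305, 1104 to 1580 and 1560 to 1927 in that order. Same-numbered mice are different animals whose deviations correlated between -0.16 and 0.17, with 2 values above 0.1, both in HGPS against 2-mo WT. Whether same-numbered mice shared handling was not tested. Without the 2 farthest mice, r changed sign for Ky with Fam19a1 (from -0.02 to 0.14) and for Cdh3 with Fam19a1 (from 0.10 to -0.030), and the cause was not tested. Ky, Cdh3 and Fam19a1 rest on 64 to 887 counts a mouse, and each p covers the spread between these mice.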
